A study of Mus musculus with 3 samples.

Results

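The transcription factors Gata3, Rora, Tcf7, Lef1, Bcl11b, Gfi1, Ets1, Tox and Nfil3 and the LIM-only adaptor Lmo4 were examined in type 2 innate lymphoid cells (ILC2s), the tissue lymphocytes that lack rearranged antigen receptors and release type 2 cytokines. The 10 genes were chosen by symbol, as factors needed for ILC2 development and identity, and all 10 were among the 16129 listed genes. Wild type mice were given IL-33, a cytokine released by damaged epithelium, in vivo, and ILC2s were sorted from their lungs by flow cytometry. The 3 RNA-sequencing libraries form 1 group, with the same tissue, cell type, genotype and treatment, and held 19948056, 19883728 and 19976129 estimated reads in replicates 1, 2 and 3. No source used here gives the strain, the age or the IL-33 dose. Nothing in the labels ties a library to 1 animal, a pool or 1 sort, so the spread between libraries may be technical. Without untreated ILC2s, a progenitor or another lymphocyte, the comparisons are between genes of the same libraries.

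Innate lymphoid cells arise from lymphoid progenitors in which Nfil3, Tox and Tcf7 act early, before a lineage is fixed. Gata3 and Rora then direct the ILC2 fate, and Bcl11b and Gfi1, zinc finger proteins that can repress transcription, hold it by keeping genes of other lymphoid lineages low. Most of these factors also serve in T cells, which share much of this network with ILC2s. In bulk RNA, fewer cells expressing a gene and less of its RNA per cell cannot be told apart.

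All 10 genes were well expressed, over a 13.5-fold range. Levels are in TPM, the share of transcript molecules scaled to a fixed total, which corrects for gene length so that different genes can be set side by side. They are given as mean ± SD (n = 3 libraries). All 10 reached 1 TPM in each library, beside 67.3% of all listed genes. A mean of at least 100 TPM was reached by 5 of the 10, beside 10.3% of listed genes. The median of the 10 was 108 TPM, against 11.2 TPM over all listed genes, and the median rank of the 10 was the 90.1st percentile. The lowest of them, Lef1, stood at the 74.4th percentile and the highest, Ets1, at the 98.6th. Together the 10 genes held 1557, 1614 and 1612 TPM in replicates 1, 2 and 3.

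The sorted cells carried the transcripts of their label. All 13 ILC2 markers examined, among them the IL-33 receptor gene Il1rl1 and the cytokine genes Il5 and Il13, had a mean above 100 TPM. Because the factors are shared with T cells, T cell markers were read beside them. Of 14 such markers 8 were detected, and their summed level was 642, 618 and 644 TPM. Cd3g (416 ± 8.15) and Lat (175 ± 11.1) made up most of that sum, whereas Cd3e was at 7.19 ± 1.57, and Cd4, Cd5, Cd6 and Cd8b1 lay below 1 TPM in every library. Their part in the levels of the lineage factors was not tested. The ILC3 markers Ccr6, Il1r1, Il22, Il23r and Ncr1 were all below 1 TPM in every library. Other marker lists held detected genes. These were 2 of 8 for NK cells and ILC1s, 1 of 7 for B cells and 2 of 5 for mast cells and basophils. For epithelium they were 5 of 7, and for endothelium and stroma 2 of 8. The list medians were 0.195 TPM for NK cells and ILC1s, 0.217 for B cells and 0.0433 for mast cells and basophils. They were 4.6 TPM for epithelium and 0.11 for endothelium and stroma. The mast cell and basophil list summed to 157, 162 and 161 TPM in replicates 1, 2 and 3, mostly from 1 gene. The endothelial and stromal list summed to 83.9, 79.4 and 84.0 TPM, also mostly from 1 gene. Among the marker lists that of macrophages had the highest ratio of replicate 3 to the others, with summed levels of 401, 393 and 549 TPM, or 1.39 times the mean of the other libraries. Chil3 alone held 338, 327 and 461 TPM of those sums, whereas C1qa was at 3.99 ± 0.715, Csf1r at 1.72 ± 0.491 and Adgre1 at 0.65 ± 0.22, and the median of the 11 listed genes was 4.26 TPM. This ratio lay between 0.961 and 1.08 for the 10 lineage factors.

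**Figure D1:**
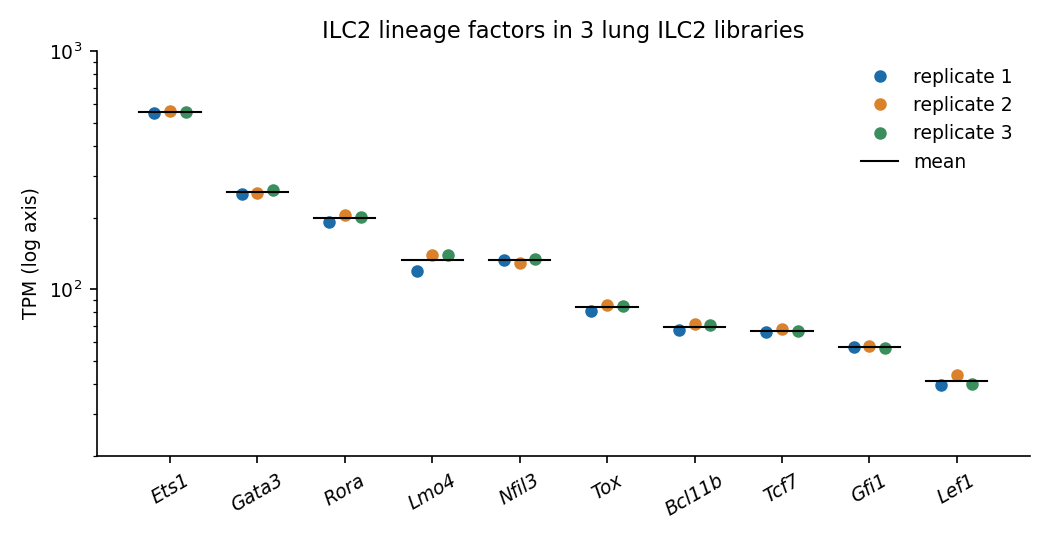
TPM (log axis) of the 10 lineage factors in replicates 1, 2 and 3 (points), with the mean of the 3 libraries (line), in order of mean level. Ets1 stands apart at 555 TPM, Lmo4 and Nfil3 overlap near 132 TPM, and Lef1 is lowest at 41.2 TPM.

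Gata3, the zinc finger factor that defines the ILC2 lineage and drives its type 2 cytokine genes, was at 252, 254 and 261 TPM in replicates 1, 2 and 3 (256 ± 4.999). Rora, an orphan nuclear receptor required for ILC2 development, was at 191, 205 and 201 TPM (199 ± 7.30). The libraries of the 2 genes did not overlap, and Gata3 was the higher in 3 of 3. The within-library difference was 0.36 ± 0.049 on the log2(TPM + 1) scale, or 1.28-fold. It was tested with an exact two-sided sign-flip permutation test, which with 3 libraries cannot go below p = 0.25. Each of the 12 contrasts made here gave that value (exact permutation, adjusted p = 0.25 over the 12), so their sizes and spreads carry the information.

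In GRCm38.p6, Gata3 (Entrez gene 14462) lies on chromosome 2 from 9857078 to 9887953 on the minus strand, and Rora (19883) on chromosome 9 from 68653404 to 69388246 on the plus strand. The deposited table credits the long Rora transcript with far more reads than Gata3. Rora had 20424 reads per library on average and Gata3 had 7759. In counts scaled for depth alone (CPM), with no correction for length, Rora exceeded Gata3, and the difference turned to -1.39 on the log2 scale. The order of these 2 genes therefore holds per unit of length only.

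Tcf7, which encodes TCF-1 of the HMG box family and marks early innate lymphoid progenitors, was at 66.05, 68.3 and 66.8 TPM (67.0 ± 1.15). Its paralog Lef1, which binds the same DNA element, was at 39.85, 43.65 and 40.1 TPM (41.2 ± 2.12). Every library of Tcf7 lay above every library of Lef1, with replicate 2 the highest for both. Tcf7 exceeded Lef1 by 0.69 ± 0.048 on the log2(TPM + 1) scale, or 1.61-fold, in 3 of 3 libraries. Tcf7 (21414) lies on chromosome 11 from 52246527 to 52283383, minus strand, and Lef1 (16842) on chromosome 3 from 131110297 to 131224357, plus strand. Their levels carry some uncertainty from neighbouring annotation. In RefSeq the Tcf7 interval overlaps that of Skp1, which the table lists as Skp1a (173 ± 10.0 TPM), and no source used here gives the strand setting of the counting. Of the 50-base words of the protein-coding Lef1 transcripts in GENCODE M21, 32.7% also occur in 1 other annotated gene, Gm43352, which the table does not list, while 0% of those of Tcf7 are shared.

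Bcl11b, a zinc finger factor that holds ILC2 and T cell identity, was at 67.4, 71.4 and 70.75 TPM (69.9 ± 2.12). Gfi1, a zinc finger repressor that upholds ILC2 function, was at 57.5, 57.7 and 56.9 TPM (57.4 ± 0.408), the smallest SD in TPM of the 10 genes. In depth-scaled reads the variation of Gfi1 was 1.53%, where counting alone gives 2.62%, and that of Ets1 was lower at 0.58%. The libraries did not overlap, and Bcl11b was higher in 3 of 3, by 0.28 ± 0.046 on the log2(TPM + 1) scale (1.21-fold). Bcl11b (58208) lies on chromosome 12 from 107910403 to 108004145 and Gfi1 (14581) on chromosome 5 from 107716655 to 107725805, both on the minus strand.

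Tox, an HMG box factor, and Nfil3, a basic leucine zipper repressor, are both needed by early innate lymphoid progenitors. In these mature cells Tox was at 81.5, 86.3 and 84.8 TPM (84.2 ± 2.44). Nfil3 was at 132, 129.5 and 135 TPM (132 ± 2.58). Nfil3 was the higher in 3 of 3 libraries without overlap, and Tox minus Nfil3 was -0.64 ± 0.058 on the log2(TPM + 1) scale. In CPM the 2 genes were nearly level, at 119.0 for Tox and 125 for Nfil3, and that difference shrank to -0.07. Tox (252838) lies on chromosome 4 from 6686353 to 6991557 and Nfil3 (18030) on chromosome 13 from 52967209 to 52982878, both on the minus strand.

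Ets1, a winged helix factor that supports the expansion of ILC2s, had the highest level of the 10, at 550.0, 559 and 556 TPM (555 ± 4.65). It lies on chromosome 9 from 32636241 to 32757820 on the plus strand (Entrez gene 23871), and only 227 listed genes had a higher mean. Lmo4, an adaptor of LIM domains that bridges DNA-binding proteins without binding DNA itself, was at 119, 139 and 139 TPM (132 ± 11.2). Lmo4 (16911) lies on chromosome 3 from 144188530 to 144205255 on the minus strand. Replicate 1 of Lmo4 fell below both other libraries, and no other member had so wide a spread.

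In the order of mean levels, the ranges of 7 of the 9 neighbouring pairs did not overlap. The largest step separated Ets1 from Gata3, at 1.12 ± 0.025 on the log2(TPM + 1) scale. Lmo4 and Nfil3 did not differ beyond their spread, with a difference of -0.00067 ± 0.13. The ranges of Bcl11b and Tcf7 also overlapped, although Bcl11b was higher within 3 of 3 libraries, by 0.06 ± 0.027. These pairs are neighbours because of their measured order, so no test was made.

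Promoters were read for letters that the factors themselves bind. RefSeq windows in GRCm38.p6 were found for 8 of the 10 genes, 15 windows in all, and Ets1 and Tox had no entry. In the 250 bases before each start, 6 words were searched on both strands: AGATAA for GATA factors, AGGTCA for ROR, CTTTGA for TCF and LEF, AAATCA for GFI, CCGGAA for ETS and TTANGTAA for NFIL3. Of the 15 windows, 2 each held the ROR, TCF and LEF, and ETS words and 0 held the other 3. Only these exact words were searched, so a window without a word may hold another form of that factor's site. The ROR word stood before Tcf7 and Nfil3, the TCF and LEF word before Lef1 and Bcl11b, and the ETS word before Gata3 and Tcf7. Over 32851 promoter windows the shares were 14.0% for ROR, 13.8% for TCF and LEF, 12.0% for ETS, 9.99% for GATA, 12.4% for GFI and 2.06% for NFIL3. A share of 13.3% among the 15 windows is near that background, several windows belong to 1 gene, and a match of 6 letters describes sequence only.

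The stretches with such matches in the Gata3, Tcf7 and Lef1 windows are shown because there a word of one lineage factor stands before a start of another, or of its own gene. The Bcl11b and Nfil3 matches are of the same kind, but the stretches around them overlap exons of those genes in GENCODE M21 and are not printed. Each is printed 5′ to 3′ on the strand of its gene, with the matched bases in capitals, and no matches share a base. The Gata3 stretch, at chr2:9878768-9878833 on the minus strand, lies inside the RefSeq interval of Gata3 and overlaps an exon of Gm13256 in GENCODE M21. It holds the ETS word from position -203 relative to a start within that interval. The Tcf7 stretch, at chr11:52282596-52282649 on the minus strand, lies in an intron of Tcf7 and of A630014C17Rik and ends just before a start within Tcf7, with the ETS word from position -24 and the ROR word from position -13. The Lef1 stretches, at chr3:131156084-131156149 and chr3:131156144-131156209 on the plus strand, lie in an intron of Lef1 and hold the TCF and LEF word from positions -180 and -120 relative to a start within Lef1. The words stand here as their reverse complements.
Gata3: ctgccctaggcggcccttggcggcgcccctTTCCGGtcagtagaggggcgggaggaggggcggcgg
Tcf7: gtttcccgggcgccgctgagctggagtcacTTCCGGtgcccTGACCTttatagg
Lef1, first stretch: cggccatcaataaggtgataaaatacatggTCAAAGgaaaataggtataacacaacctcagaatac
Lef1, second stretch: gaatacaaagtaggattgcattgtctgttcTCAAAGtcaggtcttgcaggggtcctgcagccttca

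Each factor was next set beside the genes of its family that share its DNA element or fold. The GATA, TCF/LEF, BCL11 and LMO families were held almost wholly by the lineage factor. Gata3 made up 99.9% ± 0.053 of the TPM of the listed GATA genes, and Gata1, Gata2 and Gata5 together had 8.41, 9.38 and 14.5 estimated reads in replicates 1, 2 and 3. Tcf7 and Lef1 together made up 99.1% ± 0.044 of the TCF and LEF genes, with Tcf7l1 at 0.99 ± 0.062 TPM and Tcf7l2 at 0, 0.08 and 0 TPM. The share of Bcl11b in its family was 99.97% ± 0.025, as Bcl11a had 1, 1 and 0 reads. Lmo4 made up 99.7% ± 0.14, with 8, 5 and 6 reads for Lmo1 and Lmo2 together. Gfi1b, Gata4, Gata6 and Lmo3 are not analysed here, so the GFI family gave no contrast.

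Nfil3 and Tox were not the highest genes of their families. Nfil3 binds the D-box element, for which it competes as a repressor with the activators Dbp, Tef and Hlf of the circadian clock output. Hlf was at 419, 434 and 428 TPM (427 ± 7.42), above Nfil3 in 3 of 3 libraries and on average 3.23 times as high. In log2(TPM + 1), Nfil3 minus Hlf was -1.68 ± 0.045, and in CPM it was -3.19 ± 0.045, so Hlf was the higher with or without the length correction. Tef (16.3 ± 0.594 TPM) and Dbp (8.76 ± 1.01 TPM) lay far below both. Nfil3 thus held 22.6% ± 0.56 of the TPM of the 4 D-box factors. Hlf was singled out after its values were seen.

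Tox2, a paralog of Tox that also serves in early innate lymphoid cells, was at 103, 109 and 115 TPM (109 ± 6.02). It was higher than Tox in 3 of 3 libraries, and on average 1.29 times as high, with Tox minus Tox2 at -0.37 ± 0.056 on the log2(TPM + 1) scale. Tox4 was at 51.7 ± 1.92 TPM and Tox3 below 1 TPM in every library. Tox held 34.4% ± 0.68 of its family.

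Ets1 led its family but did not fill it. The next of the 21 other listed ETS genes were Elf1 (186 ± 3.21 TPM), Elk3 (123 ± 3.21), Fli1 (99.0 ± 1.94) and Elf4 (80.3 ± 2.00), and Ets1 was 2.98 times as high as Elf1. Below them came Etv6 (53.1 ± 0.323), Gabpa (51.1 ± 1.99), Elf2 (44.9 ± 0.871), Elk4 (24.4 ± 1.18), Elk1 (21.4 ± 0.284) and Etv3 (20.6 ± 0.551), then Erf (7.63 ± 0.642) and Etv5 (4.86 ± 0.374). Ehf, Elf5, Erg, Etv1, Etv4, Spdef and Spib were below 1 TPM in every library. Of the 21 genes 13 were detected. Their sum exceeded Ets1, which held 43.2% ± 0.070 of the family. Ets2, the nearest paralog of Ets1, stood at 12.8 ± 0.803 TPM, and the myeloid factor gene Spi1 at 0.88, 1.62 and 1.15 TPM.

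Rora was compared with the other listed factors of its response element. The clock repressor genes Nr1d2 and Nr1d1, whose REV-ERB proteins compete for that element, were at 37.1 ± 2.54 and 10.2 ± 0.861 TPM, and Rorb was at 0.03, 0.02 and 0 TPM. Rora exceeded the sum of these genes by 2.05 ± 0.050 on the log2(TPM + 1) scale (4.14-fold) and made up 80.8% ± 0.55 of it and them together.

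**Figure D2:**
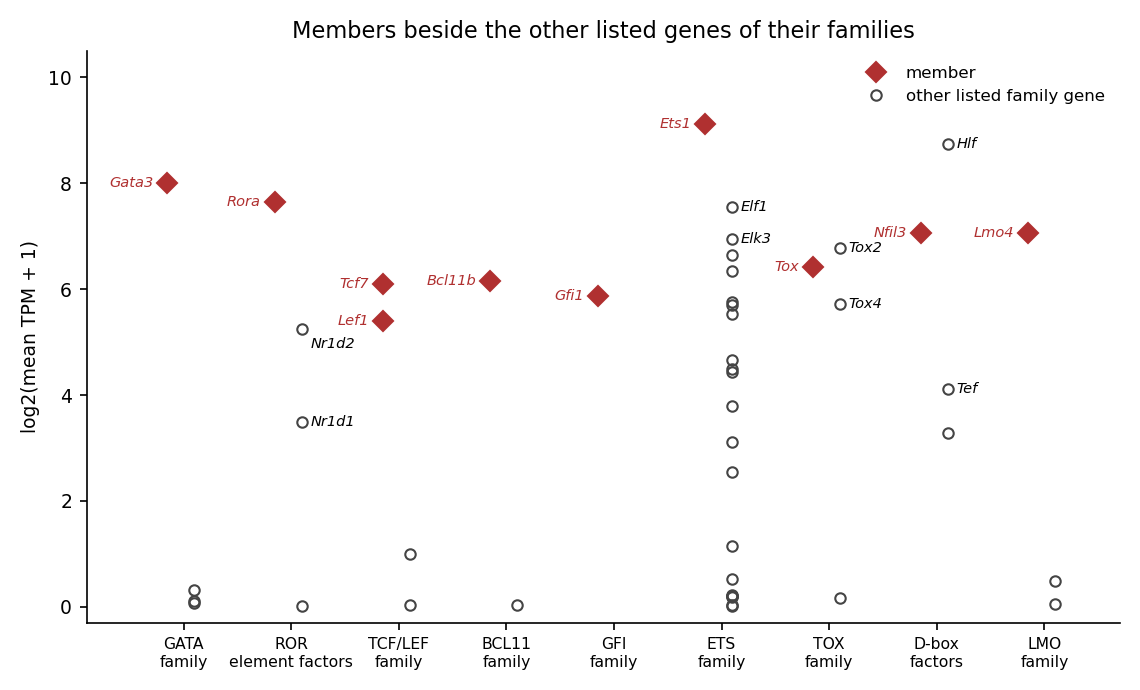
Level as log2(mean TPM + 1) of each lineage factor (red diamonds) and of the other listed genes of its family (open circles), means of 3 libraries. Hlf stands above Nfil3 and Tox2 above Tox, whereas the other listed GATA, TCF/LEF, BCL11 and LMO genes lie below 1 on this scale.

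Genes of the complexes through which the factors act were then read from lists, where detection is again 1 TPM in every library. All 9 listed genes of the NuRD remodelling complex, a partner of BCL11B whose deacetylases Hdac1 and Hdac2 are counted below, were detected, with a median of 147 TPM and Rbbp7 (316 ± 3.11), Chd4 (204 ± 7.09), Mta2 (197 ± 2.40) and Mta1 (157 ± 0.677) highest. All 5 corepressor genes of GFI1 were detected, with a median of 90.3 TPM. They were led by the histone deacetylase gene Hdac1 (254 ± 3.51) and the methyltransferase gene Ehmt2 (154 ± 4.12), and the demethylase gene Kdm1a was at 90.3 ± 3.13. Zfpm1, which encodes the GATA cofactor FOG-1, was at 46.6 ± 2.07, below Gata3 in every library.

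The partners of Lmo4 were led by Ldb1, the bridging protein of LIM complexes (286 ± 3.65 TPM), Ssbp3 (198 ± 2.20) and Ssbp4 (175 ± 6.47), while Ldb2 was at 0.04, 0 and 0 TPM. All 5 nuclear receptor coregulators listed for Rora were detected, with the corepressor gene Ncor1 highest (253 ± 7.49).

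Cofactors of TCF-1 and LEF-1 were uneven. The coactivator gene Ctnnb1, which encodes beta-catenin, was at 277 ± 1.62 TPM, and Pygo2 was at 48.9 ± 1.63. Among the Groucho-related genes listed as corepressors, Tle5 was at 619 ± 12.6. It is a separate gene whose short product lacks the repressor tail, so its level is not one of a full corepressor. Tle3 was at 149 ± 5.30, whereas Tle4, Tle1 and Tle2 lay at 5.35 ± 0.433, 5.01 ± 1.06 and 3.56 ± 0.455. All 5 were detected.

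Regulators of other lineages were lower as a group than the 10 factors. The 19 listed lineage factors were those of B cells, regulatory T cells, myeloid cells, dendritic cells, mast and erythroid cells and lung tissue. Of them 3 were detected, with a median over the list of 0.25 TPM. The detected genes were Irf8 (23.7 ± 1.02), Zbtb46 (1.87 ± 0.017) and Mitf (1.25, 1.02 and 1.25 TPM). Of 12 other lineage factors of innate lymphoid cells 10 were detected, with a median of 21.7 TPM. The inhibitor gene Id2, required by all innate lymphoid cells and counted among the ILC2 markers too, exceeded every one of the 10 factors at 1526 ± 41.1, and Rbpj (673 ± 22.2) did as well. Runx3 (122 ± 1.93) and Maf (101 ± 2.34) fell within their range. Eomes and Zbtb16 were below 1 TPM in every library.

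**Figure D3:**
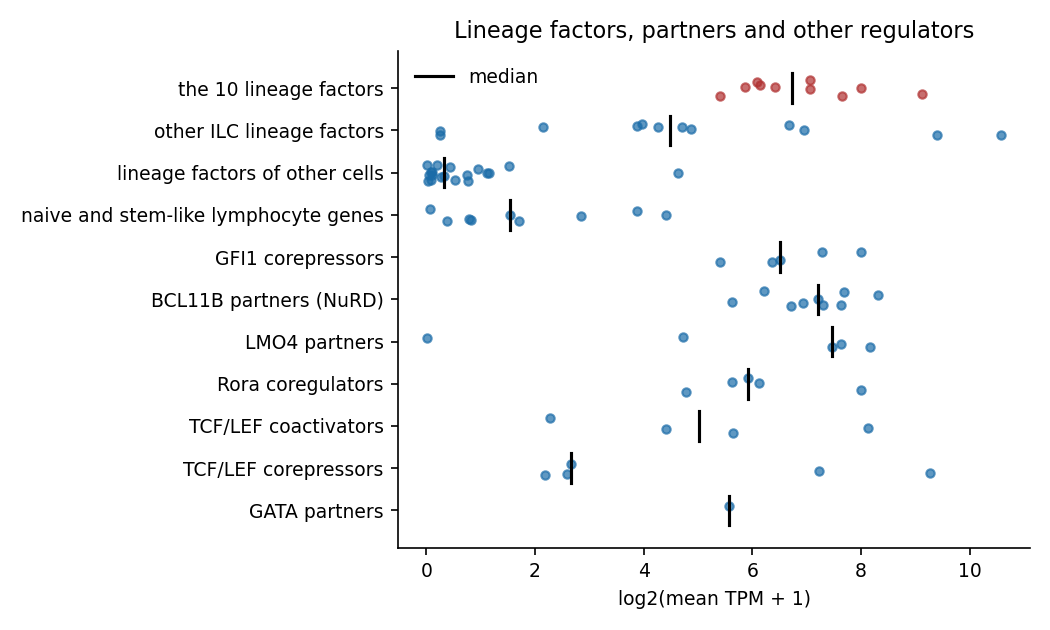
Level as log2(mean TPM + 1) of every listed gene (points, means of 3 libraries, with random vertical offset) in the 10 lineage factors and in 10 lists of partners and other regulators, with each list's median (line). The factors' median of 108 TPM lies between those of the GFI1 corepressors (90.3 TPM) and the listed NuRD genes (147 TPM), and most of the lineage factors of other cells lie below 1 on this scale.

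By level alone, the gene closest to each factor was sought among 113 genes of these lists, as the root mean square difference of log2(TPM + 1) over the 3 libraries. Gata3 lay closest to Hdac1 (0.013), Bcl11b and Tcf7 both to Ncoa3 (0.026 and 0.040), Rora to Chd4 (0.044), Lef1 to Rcor1 (0.055), Tox to Elf4 (0.069) and Gfi1 to Ncoa2 (0.087). Lmo4 and Nfil3 were closest to each other (0.11), and Ets1 had no neighbour nearer than Tle5 (0.16). With 1 group of libraries this measures likeness of level and not of response.

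The reads behind a level differed more than the levels. Mean estimated reads per library ran from 1161 for Lef1 to 26472 for Ets1, and CPM spanned 22.8-fold. The effective length implied by reads and FPKM ran 6.96-fold, from 1545 bases for Lmo4 to 10751 for Rora. By CPM Rora moved from rank 3 to rank 2 of the 10 and Bcl11b from rank 7 to rank 4, while Lmo4 moved from rank 4 to rank 7. For Ets1 (4993 bases) and Gata3 (3176) the implied length lay just below the longest protein-coding transcript in GENCODE M21 (5080 and 3215), as it did for Rora (10878). For Tox it was 2950.0 against 3961, and for Lef1 2951 against 3482. For Tcf7 (2754 against 2471) and Bcl11b (8238 against 8111) it was above the longest protein-coding GENCODE transcript. Other GENCODE transcripts of these genes were not read, so whether the annotation behind the counts differed from GENCODE there was not tested. The implied length of Bcl11b was 8372 in replicate 1 and 8173 and 8169 in replicates 2 and 3. Isoforms of a gene are not separated in the deposited values.

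**Figure D4:**
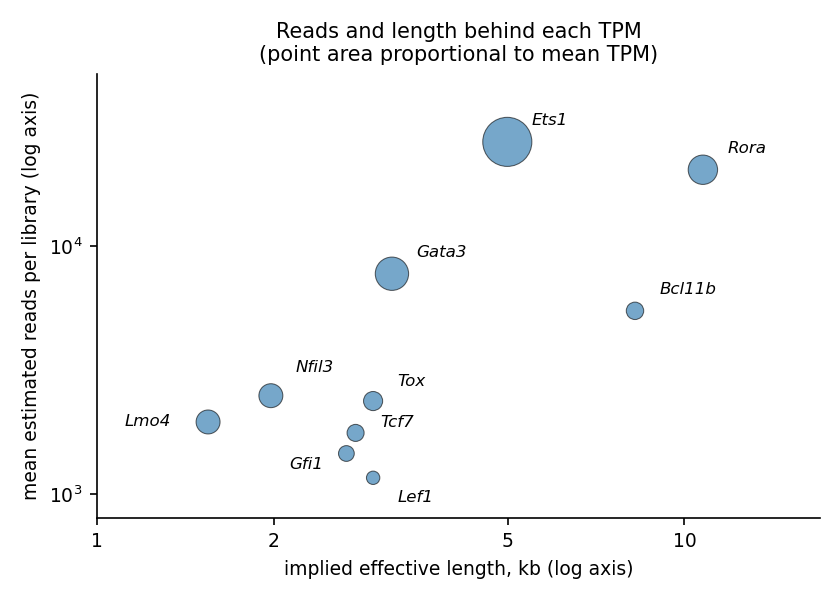
Mean estimated reads per library (log axis) against implied effective length in kb (log axis) for the 10 lineage factors, with point area proportional to mean TPM. Rora and Bcl11b are the longest, and Rora has 20424 reads against 7759 for Gata3, although its TPM is lower.

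The spread of the factors between libraries was set beside counting error and beside the spread of all genes tested. The median coefficient of variation of the factors' depth-scaled reads was 2.01%, against 3.64% over the 8262 genes with a mean of at least 10 TPM. These sets were not matched for reads, and counting error falls with reads. As a ratio to counting error, the median variation was 1.01 for the factors and 1.23 over the 8262 genes. With 3 libraries, counting error alone gives a median ratio below 1. A chi-square test of the reads of the 3 libraries, Benjamini-Hochberg adjusted over those 8262 genes, called 2 of the 10 at an adjusted p under 0.05, beside 16.2% of all genes tested, near the members' own share with all 3 libraries. The test compares these libraries, reaches smaller differences in genes with more reads, and was chosen after the values had been seen.

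Rora was called with a variation of 3.14% where counting gives 0.70% (chi-square adjusted p = 5.1e-08). Its reads were 19784, 20997 and 20493, lowest in replicate 1. Lmo4 was called with 7.85% where counting gives 2.26% (chi-square adjusted p = 0.00011). Its reads were 1777, 2047 and 2034, and replicate 1 was at 0.860 times the mean TPM of the other libraries. Without replicate 1 the test called Rora and not Lmo4, beside 5.74% of all genes tested. Replicate 1 had the lowest TPM for 8 of the 10 factors, with ratios to the mean of the other libraries from 0.860 for Lmo4 to 1.003 for Gfi1 and a median of 0.965. The ILC2 markers summed to 9746 TPM in replicate 1 and to 9474 and 9541 in replicates 2 and 3.

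**Figure D5:**
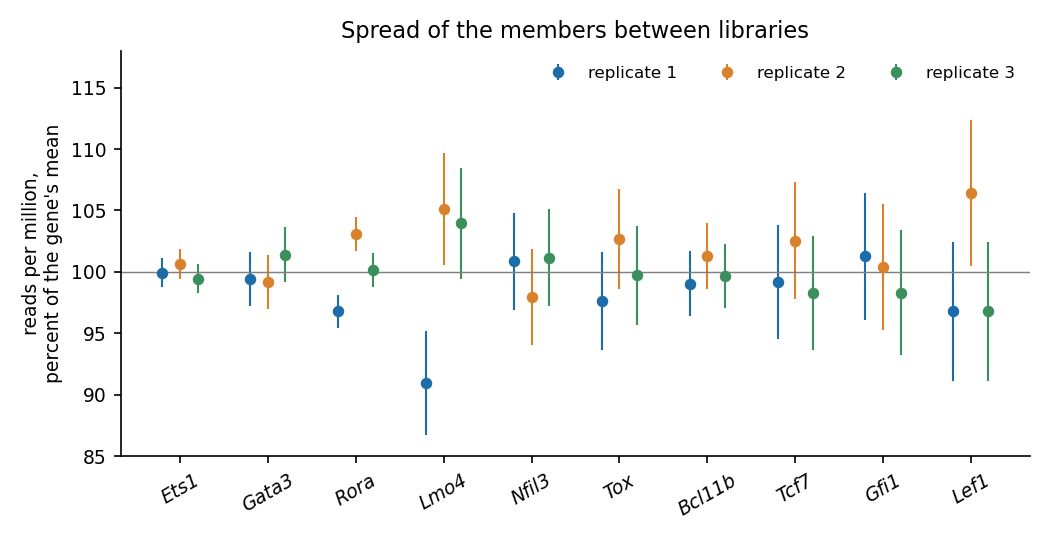
Depth-scaled reads (CPM) of each lineage factor in replicates 1, 2 and 3 as a percent of the gene's mean over the libraries, with 95% counting error (bars, from the square root of the reads). Lmo4 and Rora in replicates 1 and 2, and Lef1 in replicate 2, lie off the 100% line by more than their bars.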

How the data were processed

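RNA from 3 libraries of sorted lung ILC2s was measured, 1 group with no control. Per the submitters' processing notes, Bowtie2, RSEM 1.3.1 and GRCm38.p6 were used; no source used here gives their settings or the gene annotation. Per the file headers, the authors deposited FPKM, TPM (summing to 1000000 per library over the listed genes) and expected counts, estimated counts per gene that are not all whole. They also deposited normalised counts, a depth-scaled signal, not used here for any level. No column was left unmapped.

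TPM was used for levels and log2(TPM + 1) for differences, and a pseudocount of 1 understates differences of low genes. Detected means at least 1 TPM in all 3 libraries. Contrasts were within-library differences with an exact two-sided sign-flip permutation test; 12 of 13 planned were computed, because Gfi1b is not analysed here. Effective length was computed as estimated reads per FPKM and total reads. Expected counts entered the chi-square test of libraries unrounded. In a test on simulated counts for that comparison (8262 genes, 200 lowered to 0.8 in 1 library among those with over 1000 reads), 99.5% of the lowered and 0.21% of 8062 unchanged genes were called. The simulated counts varied by counting error alone (Poisson), which the test assumes. In the deposited data the median ratio of variation to counting error was 1.23 over the 8262 genes, so these rates do not carry over. Named genes are the 10 factors, all listed genes of their families, the gene closest in level to each, and from other lists up to 4 highest and up to 3 below 1 TPM; others were named after their values were seen. A gene of these lists that the rule would name is not reported here. Members and lists were chosen with earlier results of these data known. Alternatives were a pseudocount of 0.1, FPKM, CPM, detection at 0.5 or 5 TPM and leaving out each library. The depth of 19883728 to 19976129 reads per library put the counting error of the 10 genes between 0.61% and 2.93%. Python 3.11.15, pandas 2.3.3 and scipy 1.17.1 were used.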

Additional observations from a re-analysis of the deposited data

How the results depend on the processing

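Of 72 recomputed values of the 12 contrasts, 71 kept their direction. The exception was Gata3 minus Rora, which was 0.36 in TPM and -1.39 in CPM, where genes are not corrected for length. Only the CPM values could have reversed, so the count of 71 is no measure of robustness. Another pseudocount cannot change which side is higher, and FPKM is proportional to TPM within a library. Each contrast had the same sign in all 3 libraries, so leaving 1 out could not reverse it. No contrast could pass a threshold, since the exact sign-flip permutation p cannot go below 0.25 with 3 libraries or 0.5 with 2. The sizes of contrasts against genes near 0 depend on the pseudocount: Bcl11b minus Bcl11a was 6.12 with 1 and 9.20 with 0.1, and Gata3 minus its family was 7.54 and 9.09. In CPM, Bcl11b minus Gfi1 was 1.90 (0.28 in TPM), Rora minus the other factors of its element 3.42 (2.05), and Nfil3 minus the other D-box factors -3.23 (-1.77). All 10 genes were detected at 0.5, 1 and 5 TPM and without any 1 library. The number with a mean of at least 100 was 5 in TPM, 6 in CPM and 2 in FPKM, whose scale is lower throughout. The median percentile of the 10 was 90.1 among all listed genes, 85.3 among detected genes only and 88.3 in CPM. The number of the 10 called by the chi-square test was 2 with totals or medians of ratios for scaling, and 1 to 2 when a library was left out, alternatives chosen after seeing the data. The share over all genes tested was 16.2% with either scaling, and 5.74%, 10.3% and 11.5% without replicates 1, 2 and 3, beside 1, 2 and 2 of the 10. No paired analysis was possible because there is 1 group to compare, so only genes are paired, within each library. Depth limits the genes with fewer than about 10 reads, such as Gata2, Bcl11a and Lmo1.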

Other observations

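Genes of naive and stem-like lymphocytes, which in T cells accompany high Tcf7 and Lef1, were mostly low here. Of 9 such genes 5 were detected, beside 67.3% of all listed genes. The median over the list was 1.89 TPM, beside 67.0 TPM for Tcf7 and a median of 11.2 TPM over all listed genes. The chromatin organiser gene Satb1 was highest, at 17.5, 23.7 and 19.7 TPM in replicates 1, 2 and 3. The egress receptor gene S1pr1 followed at 13.7 ± 0.445 TPM (SD, n = 3), then the chemokine receptor gene Ccr7 at 6.15 ± 0.639 and Klf2 at 2.25 ± 0.275. Bach2 and Cxcr5 were below 1 TPM in every library. Without a naive population or an untreated ILC2 library, no change in these genes could be measured.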
